A study of Mus musculus with 9 samples.

Results

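The nuclear genes for the subunits and assembly factors of respiratory complex I were followed in whole hearts of WT and RORasg/sg mice. Members were the genes whose mouse symbol begins with Nduf, taken through the accession of each array probe. Of 54 such symbols in the mouse gene table, 44 had a probe on the array. All 44 passed the filter on dim probes, which asked for a signal well above background on 4 or more arrays. In total 27778 entries passed and are called genes here, of which 17912 carried a mouse symbol and the others stood under their accession. Shares and medians over all genes include both kinds. Ndufaf3 was well above background on 8 arrays and the other 43 members on all 9. The symbols without a probe included Ndufb1, Ndufaf8 and Ndufa4l2, and the 7 subunits encoded by mitochondrial DNA were not matched to any probe.

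Total RNA came from hearts of 5 WT and 4 RORasg/sg male mice, all labelled C57BL/6, 3 to 4 months old, untreated and kept on NIH31 diet after weaning at 3 weeks. RORasg/sg mice are homozygous for the staggerer allele, a germline deletion within Rora, so every cell type carries it. Each heart was hybridised to its own single-colour Agilent array after whole-transcriptome amplification. The hearts were bulk tissue, in which fewer cells of a type and less RNA per cell cannot be told apart.

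Complex I (NADH:ubiquinone oxidoreductase) takes electrons from NADH, passes them through a flavin and a chain of iron-sulphur clusters to ubiquinone, and pumps protons across the inner mitochondrial membrane. Its peripheral arm in the matrix carries the redox centres and its membrane arm carries the proton channels. Heart muscle is rich in mitochondria and depends on this complex for most of its ATP. RORα, the product of Rora, is a nuclear receptor that binds DNA as a monomer at the motif AGGTCA preceded by A and T bases, and ERRα, a receptor known for driving mitochondrial genes, binds the extended motif AAGGTCA.

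The 250 bases upstream of the RefSeq start site were searched on both strands for AGGTCA because of that preference. RefSeq promoter windows (GRCm38.p6) were found for 39 of the 44 members, in 41 windows. AGGTCA was present in 5 of the 41 windows (12.2%), against 14.0% of all 32851 windows of the same length. The members holding it were Ndufb4, Ndufb10, Ndufb2, Ndufs8 and Ndufs5, and their windows are shown because they carry the receptor's motif, which is written in capitals. The windows, each read 5′ to 3′ on the strand of the gene, were Ndufb4 at chr16:37654369-37654618 (minus strand), Ndufb10 at chr17:24724424-24724673 (minus strand), Ndufb2 at chr6:39592315-39592564 (plus strand), Ndufs8 at chr19:3912775-3913024 (minus strand) and Ndufs5 at chr4:123718187-123718436 (minus strand). In Ndufs5 the capitals mark TGACCT, the reverse complement, since the AGGTCA motif lay on the other strand.

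Ndufb4: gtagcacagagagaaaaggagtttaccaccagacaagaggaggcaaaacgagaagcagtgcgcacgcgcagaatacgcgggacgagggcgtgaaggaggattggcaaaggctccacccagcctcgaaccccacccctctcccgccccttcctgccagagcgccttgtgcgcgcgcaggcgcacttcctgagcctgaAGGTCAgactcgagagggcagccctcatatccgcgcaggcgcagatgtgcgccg
Ndufb10: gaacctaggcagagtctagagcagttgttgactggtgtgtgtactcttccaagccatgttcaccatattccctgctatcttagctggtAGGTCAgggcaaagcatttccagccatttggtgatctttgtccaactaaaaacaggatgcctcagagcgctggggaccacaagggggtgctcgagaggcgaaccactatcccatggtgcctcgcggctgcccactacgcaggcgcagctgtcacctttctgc
Ndufb2: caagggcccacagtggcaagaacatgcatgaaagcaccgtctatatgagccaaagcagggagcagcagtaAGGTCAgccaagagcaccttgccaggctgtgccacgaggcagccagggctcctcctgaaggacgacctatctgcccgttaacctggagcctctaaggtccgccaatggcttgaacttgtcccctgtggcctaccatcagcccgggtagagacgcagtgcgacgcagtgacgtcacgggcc
Ndufs8: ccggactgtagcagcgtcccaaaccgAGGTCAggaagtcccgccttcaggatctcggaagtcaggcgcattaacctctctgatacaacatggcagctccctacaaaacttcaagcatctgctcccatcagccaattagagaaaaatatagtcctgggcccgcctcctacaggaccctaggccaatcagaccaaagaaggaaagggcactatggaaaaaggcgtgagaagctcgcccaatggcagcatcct
Ndufs5: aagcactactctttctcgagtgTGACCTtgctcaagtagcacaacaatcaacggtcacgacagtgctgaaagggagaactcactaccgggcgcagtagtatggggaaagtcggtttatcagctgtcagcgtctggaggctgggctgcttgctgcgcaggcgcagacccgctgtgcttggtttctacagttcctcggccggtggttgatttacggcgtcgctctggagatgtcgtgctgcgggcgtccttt

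The AGGTCA motif began 54 bases upstream of the start in Ndufb4, 162 in Ndufb10, 180 in Ndufb2, 224 in Ndufs8 and 228 in Ndufs5. The ERR motif AAGGTCA, which contains AGGTCA, was in 3 of these windows (Ndufb4, Ndufb2 and Ndufs5), 7.3% of member windows against 4.1% of all. The palindrome of NRF1, a factor known for nuclear genes of mitochondria, was in 8 member windows from 7 genes, 19.5% against 3.7% of all windows. The ETS site CCGGAAG was in 9.8% of member windows against 6.9%, and the YY1 site AAGATGGCG in 0 of 41 against 0.61%. These are matches of letters in a window, and no binding was measured.

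Levels are given as log2 of the deposited processed intensity minus log2 of the array's 75th percentile, and differences as RORasg/sg minus WT on that log2 scale, so a level of one gene is not comparable with that of another. Brightness varied from array to array, with a 75th percentile of 436 to 681 in WT and 263 to 774 in RORasg/sg, and of under 500 on WT 4 and RORasg/sg 2, 3 and 4. Over all genes the median difference was 0.40, and without scaling it was -0.17. Rora read 2.88, 3.29, 2.89, 1.51 and 3.06 in WT 1 to 5 and 0.08, -2.71, -1.01 and -1.99 in RORasg/sg 1 to 4, and the groups did not overlap (exact permutation test, 2-sided, p = 0.0079, the smallest that 5 against 4 hearts allow). In the limma fit across all genes, by which the members are judged, Rora differed by -4.13 (SE 0.61) and did not pass (adjusted p = 0.224). Whether its probe lies inside the deleted part of the gene was not established. All 12 cardiomyocyte markers listed were detected, and all 12 read lower on average in RORasg/sg (median -0.79), with 0 past the adjusted threshold. Their summed linear level was 807 to 963 in WT and 340 to 904 in RORasg/sg. Of the other cell types, 4 of 4 lymphocyte markers (median 1.43) and 3 of 3 atrial markers (median 0.92) read higher. Lower were 5 of 8 endothelial markers (median -1.25) and 6 of 8 macrophage markers (median -0.35), and 0 of all these passed the threshold. The remaining lists also went both ways. The lymphocyte markers were dim, with a summed linear level of 0.88 to 1.83 in WT. Over all genes 33.4% read lower. The part of brightness in the values of complex I was tested only as far as the settings given here, and that of cell makeup was not tested.

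None of the 44 complex I members passed the test across all genes (limma, Benjamini-Hochberg adjusted p under 0.05), where 1 of 27778 genes did (0.0036%). The lowest adjusted p among members was 0.375, for Ndufaf7. The members split evenly, 22 reading higher and 22 lower in RORasg/sg, and their median difference was 0.03 against 0.40 over all genes. Of the 44, 31 lay below the median of all genes. The even split moved with the scaling: quantile normalization gave 13 higher and 31 lower, and no scaling gave 10 higher and 34 lower. Arrays of both groups lay on 2 of the 3 slides, and the median was 0.43 within slide 1 (WT 1 and 2, RORasg/sg 1 and 2), with 37 members higher, and -0.17 within slide 2 (WT 3 and 4, RORasg/sg 3 and 4), with 20 higher.

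At an unadjusted p under 0.05, 3 members read lower (Ndufaf7, Ndufv2 and Ndufb8) and 0 higher, against 6.63% and 4.89% of all genes. The hearts of both genotypes did not overlap for 1 member, Ndufaf7, which was lower; over all genes 1.71% were lower without overlap and 1.11% higher. Both shares of members lay near the background. In simulated data, the same test recovered 0% of genes changed 2-fold, 20% of those changed 4-fold and 50% of those changed 8-fold, and called 8 unchanged genes. Each gene was drawn independently, with its pooled SD used for both genotypes. Array shifts shared by genes and the wider spread of some members in RORasg/sg were not simulated, so these shares are only a guide. Member differences ran from -2.35 to 0.94 with standard errors of 0.25 to 1.09. With each array weighted by how well it followed its group (limma array weights, the same 9 arrays), 32 members passed, 18 higher and 14 lower, as did 15141 of all genes, 10505 higher and 4636 lower. On all 9 arrays the call of 0 members thus held with equal weights and not with these weights. The weighted medians were 0.21 for members and 0.69 for all genes, near the 0.24 and 0.68 found without RORasg/sg 1. In that setting, given below, genotype and brightness differed together except for WT 4.

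**Figure D1:**
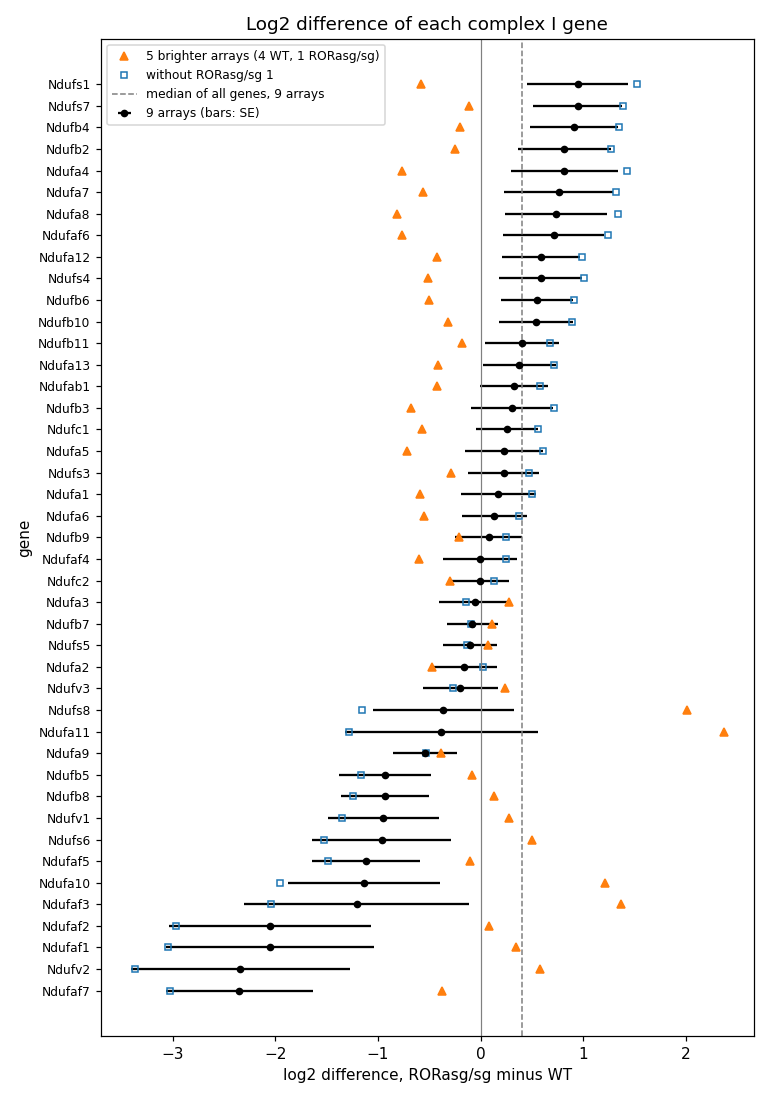
Log2 difference (RORasg/sg minus WT) of 43 complex I members, ordered by the difference over all 9 arrays (black points, bars are the standard error), with the values without RORasg/sg 1 (open squares) and on the 5 brighter arrays (triangles). The dashed line marks the median of all genes, 0.40; the squares and triangles lie on opposite sides of 0 for most members at the top of the plot.

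The 7 nuclear-encoded core subunits carry the catalytic machinery conserved from bacteria. Their median difference was -0.36, and 0 passed the adjusted threshold. Ndufv1 binds NADH and the flavin, Ndufv2 and Ndufs1 hold iron-sulphur clusters next to it, and Ndufs3, Ndufs7 and Ndufs8 belong to the path to ubiquinone.

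Ndufv1 read 4.88, 5.41, 5.63, 5.50 and 5.67 in WT 1 to 5 and 5.67, 5.59, 3.71 and 2.90 in RORasg/sg 1 to 4. RORasg/sg 3 and 4 were below every WT heart, while RORasg/sg 1 and 2 lay at the upper end of the WT range. The difference was -0.95 (SE 0.54; adjusted p = 0.42). Ndufv2 read 2.27, 2.14, 2.39, 1.53 and 2.36 in WT and 2.87, 1.79, -2.88 and -2.60 in RORasg/sg. RORasg/sg 3 and 4 again stood far below all WT hearts, RORasg/sg 1 was above them, and RORasg/sg 2 was within their range. The difference was -2.34 (SE 1.07; adjusted p = 0.42), and the SD was 0.35 in WT (n = 5) and 2.96 in RORasg/sg (n = 4).

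Ndufs1 read 5.69, 5.86, 5.57, 6.83 and 5.87 in WT and 5.16, 7.92, 7.27 and 7.29 in RORasg/sg. RORasg/sg 2, 3 and 4 were above every WT heart and RORasg/sg 1 was below every one, and the mean difference of 0.94 (SE 0.49; adjusted p = 0.42) averaged over hearts on both sides. WT 4 stood apart from the other WT hearts, on the side of RORasg/sg 2 to 4. Ndufs7 showed the same arrangement, with 5.33, 5.62, 5.53, 6.84 and 5.65 in WT and 5.42, 7.52, 6.88 and 7.12 in RORasg/sg. Here RORasg/sg 1 lay inside the WT range, and the difference was 0.94 (SE 0.44; adjusted p = 0.42). Ndufs3 read 5.65, 5.76, 5.90, 6.96 and 5.88 in WT and 5.50, 6.80, 6.44 and 6.26 in RORasg/sg, a difference of 0.22 (SE 0.35) that was smaller than the SD of either group (0.53 in WT and 0.55 in RORasg/sg). WT 4 was the highest of all 9 hearts for Ndufs3.

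Ndufs8 ran the other way in the same hearts. It read 0.15, -0.43, 0.49, 0.08 and 0.12 in WT and 2.09, -0.35, -1.34 and -1.54 in RORasg/sg. RORasg/sg 1 was the highest of the 9 hearts, RORasg/sg 3 and 4 were the lowest, and the difference was -0.36 (SE 0.68). Without RORasg/sg 4 it was 0.05.

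**Figure D2:**
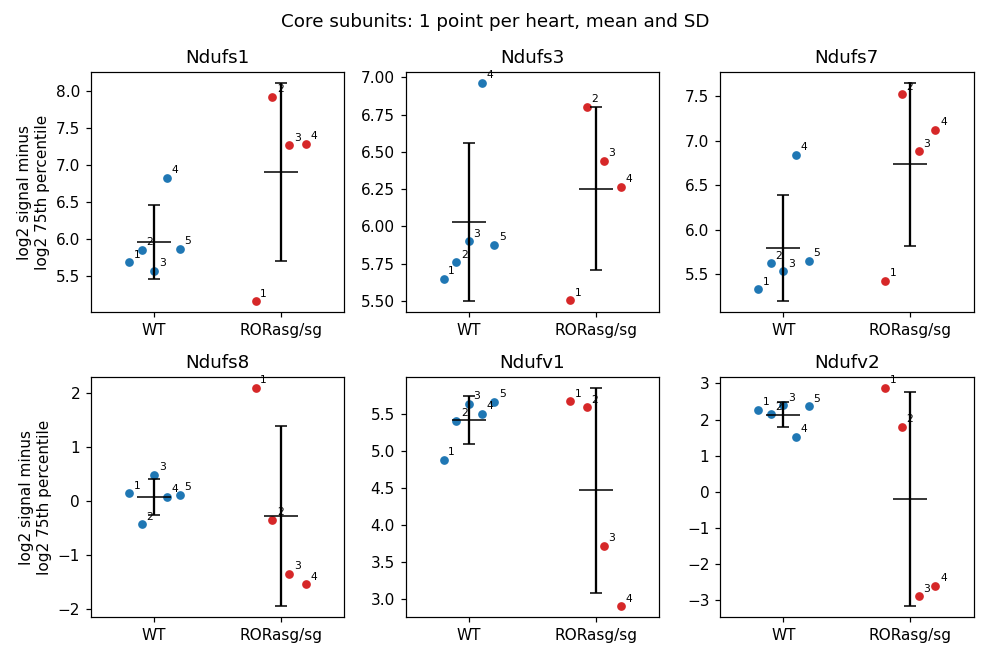
Levels of 6 core subunits in each heart (log2 signal minus log2 of the array's 75th percentile), with points numbered by heart and bars for the mean and SD of 5 WT and 4 RORasg/sg hearts. RORasg/sg 1 lies apart from RORasg/sg 3 and 4 in every panel, below them for Ndufs1, Ndufs3 and Ndufs7 and above them for Ndufs8, Ndufv1 and Ndufv2.

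The 9 accessory subunits of the peripheral arm had a median difference of 0.13, with 5 higher, 4 lower and 0 past the adjusted threshold. Ndufa9, which sits near the ubiquinone site, read 5.71, 5.74, 5.61, 6.63 and 5.77 in WT and 5.32, 5.96, 5.10 and 5.00 in RORasg/sg. RORasg/sg 1, 3 and 4 lay below every WT heart and RORasg/sg 2 within the WT range. The difference was -0.55 (SE 0.31, adjusted p = 0.42). On the 5 brighter arrays, with 1 RORasg/sg heart, it was -0.39, near the median of -0.35 over all genes there. Ndufs4, a late-joining subunit whose loss causes Leigh syndrome, read 5.39, 5.47, 5.21, 6.21 and 5.38 in WT and 4.85, 6.86, 6.20 and 6.54 in RORasg/sg. The difference was 0.58 (SE 0.40; adjusted p = 0.435), with RORasg/sg 1 below all WT hearts and RORasg/sg 2 and 4 above them.

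Ndufa12, which takes the place of the assembly factor Ndufaf2 when the peripheral arm is completed, read 5.90, 6.09, 5.93, 6.90 and 6.23 in WT and 5.61, 7.60, 6.86 and 7.12 in RORasg/sg. RORasg/sg 1 was below the WT hearts and RORasg/sg 2 and 4 above them, and the difference was 0.59 (SE 0.38; adjusted p = 0.427). Its other probes read lower in RORasg/sg. The remaining members of the arm ran from -0.96 for Ndufs6 to 0.76 for Ndufa7.

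Accessory subunits of the proximal membrane arm numbered 9, with 4 higher, 5 lower, 0 past the adjusted threshold and a median difference of -0.007. Ndufa10, a subunit related to nucleoside kinases, read 3.03, 2.94, 3.77, 2.77 and 3.50 in WT and 4.52, 1.19, 0.016 and 2.53 in RORasg/sg. RORasg/sg 2, 3 and 4 lay below every WT heart and RORasg/sg 1 above every one; the difference was -1.14 (SE 0.74; adjusted p = 0.427). Ndufa8, a subunit on the intermembrane-space side, showed the reverse: 6.12, 6.14, 6.23, 7.40 and 6.28 in WT against 5.37, 7.95, 7.53 and 7.82 in RORasg/sg. RORasg/sg 2, 3 and 4 were above all WT hearts and RORasg/sg 1 below them, and the difference was 0.73 (SE 0.50; adjusted p = 0.432).

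Ndufa13, also known as GRIM-19, read 6.58, 6.67, 6.75, 7.80 and 6.86 in WT and 6.30, 7.99, 7.47 and 7.46 in RORasg/sg. Only RORasg/sg 2 exceeded WT 4, and the difference of 0.38 (SE 0.36) was below the SD of either group (0.49 and 0.72). Ndufa11 had the widest spread in this arm, from -2.34 in RORasg/sg 3 to 3.12 in RORasg/sg 1, for a difference of -0.38 (SE 0.94). The WT hearts lay between 0.15 and 1.37 for Ndufa11, so the RORasg/sg hearts fell on both sides of them.

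The 10 distal accessory subunits, all of the Ndufb series, had the highest median of the subunit groups (0.35, with 7 higher and 3 lower), and 0 passed the adjusted threshold. Ndufb8, whose protein is widely used as a readout of assembled complex I, read 5.79, 5.92, 6.23, 6.70 and 6.29 in WT and 6.19, 5.97, 4.79 and 4.06 in RORasg/sg. RORasg/sg 3 and 4 were below every WT heart, RORasg/sg 1 and 2 lay among them, and the difference was -0.93 (SE 0.43; adjusted p = 0.42). Ndufb5 was also low in RORasg/sg 3 and 4, with 4.98, 4.93, 5.13, 5.91 and 5.32 in WT and 5.01, 5.32, 3.71 and 3.24 in RORasg/sg. Its difference was -0.93 (SE 0.45; adjusted p = 0.42), again set by RORasg/sg 3 and 4.

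Ndufb4, whose promoter window holds the AGGTCA motif nearest to the start, read 4.61, 4.79, 4.86, 5.87 and 4.91 in WT and 4.60, 6.56, 6.00 and 6.52 in RORasg/sg. RORasg/sg 2, 3 and 4 lay above every WT heart and RORasg/sg 1 just below the lowest; the difference was 0.91 (SE 0.43; adjusted p = 0.42). The other members with the AGGTCA motif had differences of 0.53 (SE 0.36) for Ndufb10, 0.81 (SE 0.45) for Ndufb2, -0.10 (SE 0.26) for Ndufs5 and -0.36 (SE 0.68) for Ndufs8. The 5 members with an AGGTCA motif thus read in both directions, and none passed the test. In all 10 distal subunits WT 4 was above the other 4 WT hearts.

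Ndufab1, the mitochondrial acyl carrier protein, which is also part of complex I, read 4.34, 4.36, 4.54, 4.59 and 4.54 in WT and 4.01, 5.38, 4.75 and 5.03 in RORasg/sg. Its WT hearts were close together (SD 0.12), RORasg/sg 1 lay below them and the other 3 above, and the difference was 0.32 (SE 0.33; adjusted p = 0.558). Ndufa4 carries the family name but is a subunit of complex IV. It read 5.81, 5.78, 5.61, 7.07 and 5.76 in WT and 4.98, 7.67, 7.15 and 7.48 in RORasg/sg, the arrangement of Ndufs1 and Ndufa8, and differed by 0.81 (SE 0.52; adjusted p = 0.425).

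**Figure D3:**
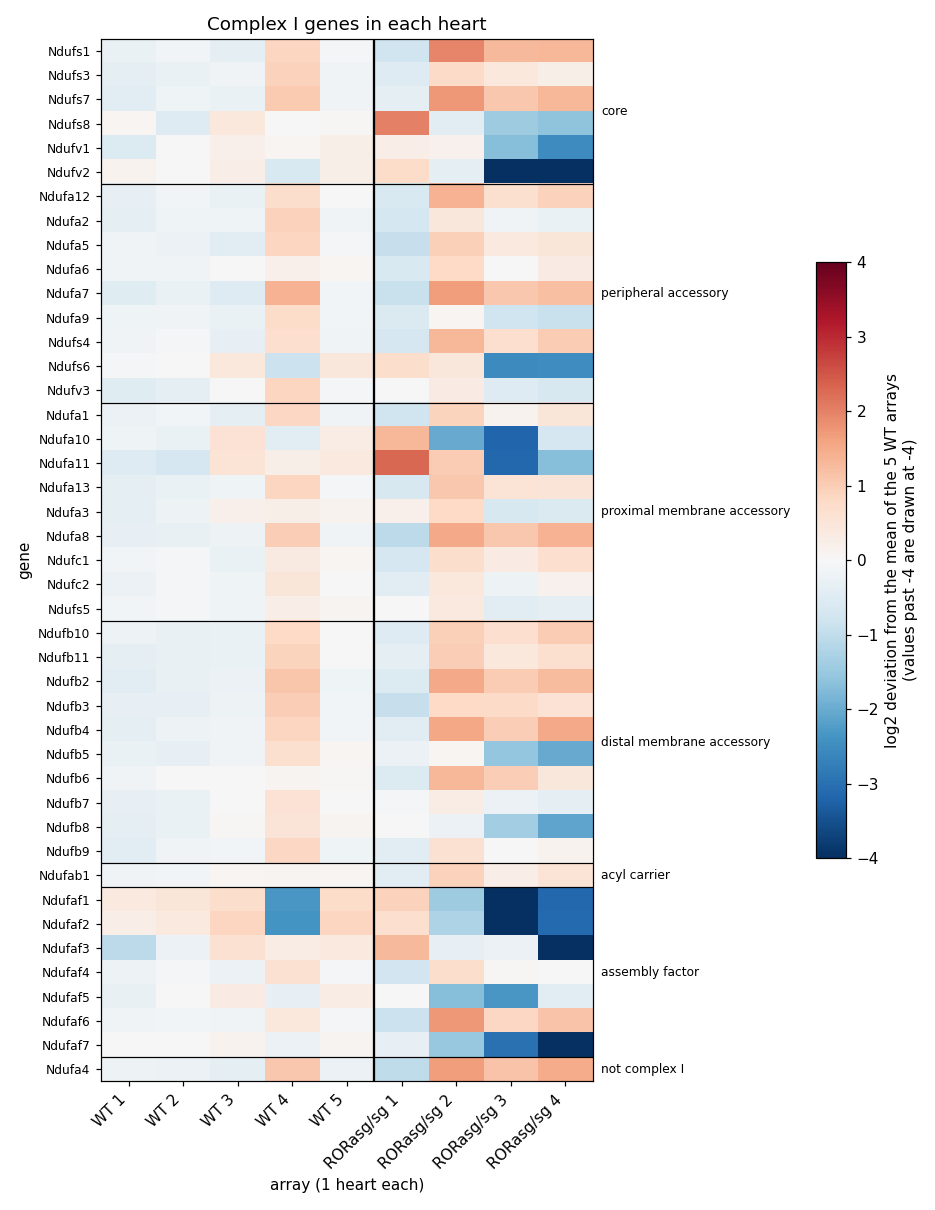
Log2 deviation of 43 complex I members (rows, grouped by role) from the mean of the 5 WT hearts, in each of the 9 hearts (columns). RORasg/sg 1 is below the WT mean with RORasg/sg 2, 3 and 4 above it in 21 rows, and WT 4 is above the other 4 WT hearts in most rows.

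Assembly factors build the complex and are absent from its finished form. They had the lowest median of the role groups (-1.21), with 6 of 7 reading lower in RORasg/sg, 0 past the adjusted threshold and 1 (Ndufaf7) at an unadjusted p under 0.05. Ndufaf7 is a methyltransferase that acts early in assembly. It read 2.22, 2.25, 2.38, 1.99 and 2.33 in WT and 1.92, 0.71, -0.75 and -2.35 in RORasg/sg. All 4 RORasg/sg hearts were below all 5 WT hearts, RORasg/sg 1 only just. The difference was -2.35 (SE 0.72), a 5.10-fold lower mean, with an adjusted p of 0.375, and without RORasg/sg 4 it was -1.61. A dimmer probe of Ndufaf7 did not show it (0.22, SE 0.49).

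Ndufaf5, a hydroxylase that acts on Ndufs7, read 0.996, 1.30, 1.62, 0.96 and 1.61 in WT and 1.28, -0.42, -1.02 and 0.88 in RORasg/sg. Its mean differed by -1.12 (SE 0.53; adjusted p = 0.42), with RORasg/sg 2, 3 and 4 below every WT heart and RORasg/sg 1 within their range. Ndufaf2, the factor that Ndufa12 replaces, read 3.96, 4.10, 4.56, 1.29 and 4.55 in WT and 4.38, 2.47, -0.86 and 0.57 in RORasg/sg. WT 4 was far below the other WT hearts, and lower than RORasg/sg 2. The difference was -2.05 (SE 0.98; adjusted p = 0.42).

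Ndufaf1, an early factor for the membrane arm, had the same profile as Ndufaf2, with -1.97 in WT 4 against 0.76 to 1.10 in the other WT hearts, and -2.06 (SE 1.01) between the groups. Ndufaf3 differed by -1.21 (SE 1.09), Ndufaf4 by -0.007 (SE 0.36) and Ndufaf6 by 0.71 (SE 0.49). Ndufaf6 was thus the 1 assembly factor that read higher. Of 12 assembly genes outside the Nduf names, 11 were measured: 6 read higher and 5 lower, with a median of 0.32, a range of -3.68 to 0.62 and 0 past the adjusted threshold. The low median of the Nduf assembly factors was therefore not seen in the median of the other assembly genes. At an unadjusted p under 0.05 (limma), 3 of those 11 read lower and 0 higher, against 6.63% and 4.89% of all genes.

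The 4 RORasg/sg hearts did not move together. In 21 members RORasg/sg 1 read below the WT mean while RORasg/sg 2, 3 and 4 all read above it (47.7%, against 42.6% of all genes). In 8 the signs were reversed (18.2%, against 10.5%), and 13 were mixed. All 4 hearts were below the WT mean in 2, Ndufaf5 and Ndufaf7 (4.5%, against 6.9% of all genes). All 4 were above it in 0 members, against 6.6% of all genes. The median deviation of the members from the WT mean was -0.42 in RORasg/sg 1, 0.73 in RORasg/sg 2, -0.009 in RORasg/sg 3 and 0.15 in RORasg/sg 4. Over all genes it was -0.40, 0.55, 0.65 and 0.76, so the members followed all genes in RORasg/sg 1 and 2 and lay below them in RORasg/sg 3 and 4. RORasg/sg 1 was the brightest of the 9 arrays.

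Among the WT hearts, WT 4 was above the other 4 in 33 of 44 members (75%, against 46.3% of all genes). WT 4 was below them in 7 (15.9%, against 28.0% of all genes), which included Ndufaf1, Ndufaf2 and Ndufs6. The array of WT 4 was the 1 WT array under 500 at the 75th percentile, and those of RORasg/sg 2, 3 and 4 were also under 500. With array brightness as a covariate, 7 members read higher and 37 lower, with a median of -0.25 against 0.008 over all genes, and 0 members were called.

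Without RORasg/sg 1, 22 of the 44 members passed the adjusted threshold, 13 higher and 9 lower, against 28.5% and 8.91% of all genes. The higher group included Ndufs1 at 1.53 (SE 0.30; adjusted p = 0.011), Ndufs7 at 1.38, Ndufb4 at 1.35, Ndufa8 at 1.33 and Ndufa4 at 1.43. The lower group included Ndufaf7 at -3.03 (SE 0.59; adjusted p = 0.011), Ndufv2 at -3.37, Ndufaf1 at -3.05, Ndufaf2 at -2.96, Ndufa10 at -1.96, Ndufb8 at -1.25 and Ndufs8 at -1.16. In that setting each remaining RORasg/sg array was among the 4 dimmer ones, and genotype and brightness differed together except for WT 4. The member median was 0.24, against 0.68 over all genes.

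On the 5 brighter arrays (WT 1, 2, 3 and 5 and RORasg/sg 1), 7 members passed, 2 higher (Ndufs8 at 2.01, SE 0.33, adjusted p = 0.025; Ndufa11 at 2.37, SE 0.45, adjusted p = 0.031) and 5 lower (Ndufa5, Ndufa8, Ndufb3, Ndufaf6 and Ndufa4, from -0.82 to -0.68). Over all genes 1.36% were higher and 3.33% lower. That comparison holds 1 RORasg/sg heart, which was taken to vary like the WT hearts. It restates where RORasg/sg 1 lay and gives no replicated test of the genotype. For Ndufs8, Ndufa5, Ndufa8, Ndufb3, Ndufaf6 and Ndufa4, RORasg/sg 1 was on the other side of the WT mean from RORasg/sg 2, 3 and 4. For Ndufa11, RORasg/sg 2 lay above the WT mean with RORasg/sg 1, and RORasg/sg 3 and 4 lay below it.

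The sign of a member's difference also varied with how bright its probe was, a grouping made after the values were seen. Brightness was averaged over all 9 arrays, so the RORasg/sg values themselves helped to set a member's group. Ndufv2 averaged 2.14 in WT and 1.10 over all 9 arrays, and Ndufs1 5.97 and 6.39. Part of the trend was thus built into the grouping, and how large a part was not tested. Of 16 members whose probe averaged 6 or more on the log2 scale, 14 read higher in RORasg/sg. Of 12 between 5 and 6, 6 did, of 9 between 2 and 5, 2 did (Ndufab1 and Ndufaf6), and of 7 under 2, 0 did. Over all genes the share reading lower was 19.4%, 27.6%, 40.1% and 32.8% in the same order, a narrower range than among the members. The 7 members under 2 were Ndufv2, Ndufs8, Ndufa11, Ndufaf1, Ndufaf3, Ndufaf5 and Ndufaf7.

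There were 11 members with 2 or more kept probes, and in 6 of them the probes disagreed in sign (54.5%, against 46.0% of 6336 named genes). Ndufab1 differed by 0.32 (SE 0.33) on its brighter probe and -1.88 (SE 1.11) on the other. Ndufa7 gave 0.76 (SE 0.53) and -0.74 (SE 0.68). Ndufa12 gave 0.59 on the brightest of its 3 probes and -0.87 and -0.88 on the others. Ndufa1 gave 0.17 (SE 0.36) on its brighter probe and -0.42 (SE 0.25) on the other. In each of these genes the brighter probe read higher in RORasg/sg and the dimmer ones lower, whereas Ndufaf7 showed the reverse. Ndufv3 had neither arrangement, with -0.20 (SE 0.36) on its brightest probe, 0.13 (SE 0.42) on the next and -0.22 (SE 0.44) on the dimmest.

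Other members had probes that followed each other heart by heart. The 3 probes of Ndufs6, a zinc-binding subunit of the peripheral arm, gave -0.96, -0.85 and -0.92, and on each of them RORasg/sg 3 and 4 stood far below the rest. Both probes of Ndufa8 gave 0.73 and 0.75, and both probes of Ndufa11 gave -0.38 and -0.37. The reference holds related copies or pseudogenes of Ndufa12, Ndufab1, Ndufs6, Ndufs5, Ndufa11 and Ndufb4, and whether a probe also binds their transcripts was not tested.

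**Figure D4:**
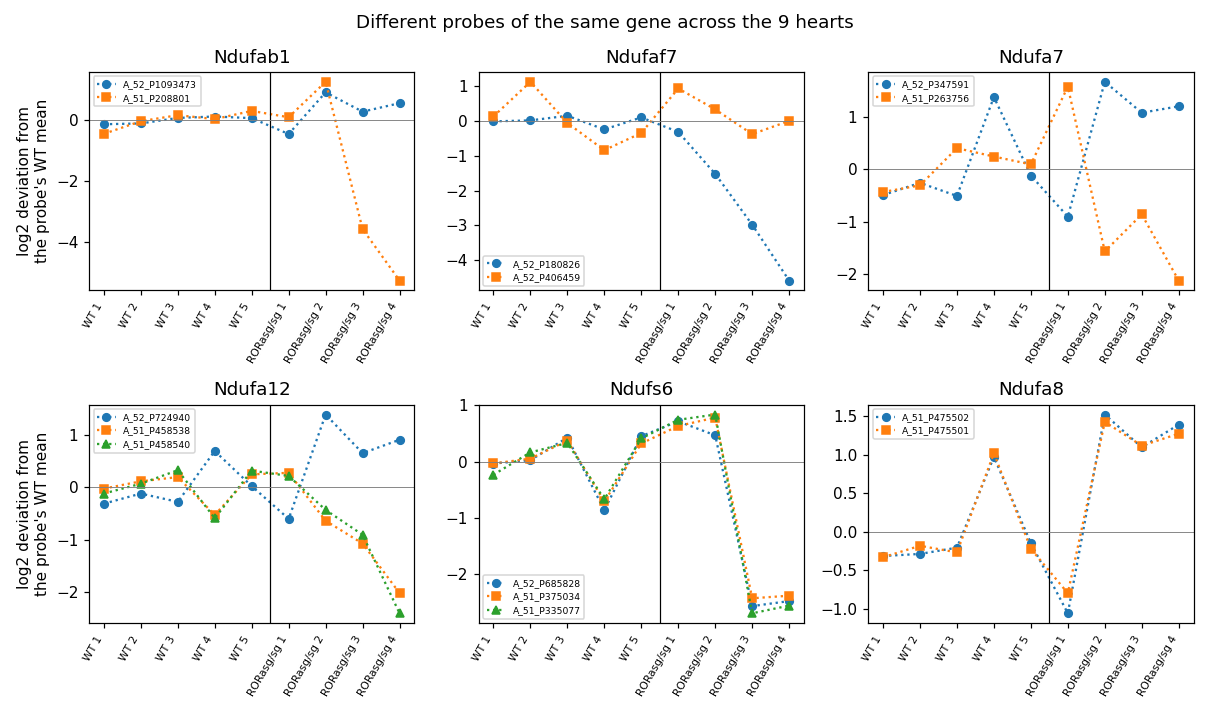
Log2 deviation of each probe from its own WT mean in the 9 hearts, for 6 members with 2 or 3 probes. The probes of Ndufs6 and Ndufa8 overlie each other, while those of Ndufab1, Ndufaf7, Ndufa7 and Ndufa12 part in RORasg/sg 3 and 4. Some part in RORasg/sg 1 or 2 as well, and in RORasg/sg 1 the probes of Ndufa7 lie farthest apart.

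The other respiratory complexes were set beside the subunits of complex I, leaving out its assembly factors and Ndufa4; without Ndufa4 alone the median of the members was -0.007. Median differences were -1.46 for complex II (4 genes, all 4 lower), 0.36 for complex III (9 genes), 0.53 for complex IV (16 genes) and 0.26 for complex V (17 genes), against 0.15 for the 36 complex I subunits (20 higher, 16 lower), and 0 genes passed the adjusted threshold in any of them. For complexes II to V together, 30 of 46 read higher with a median of 0.30. WT 4 was above the other WT hearts in 33 of these 46 genes (71.7%), close to the 75% of complex I members, and RORasg/sg 1 was below the WT mean with the other 3 above it in 56.5%. Complex II stood apart from this, with median deviations from the WT mean of -0.61 in WT 4, 0.41 in RORasg/sg 1, and -1.29, -2.30 and -2.96 in RORasg/sg 2, 3 and 4. No test set the complexes against each other.

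Cardiomyocyte markers had a median deviation from the WT mean of -0.015 in RORasg/sg 1, -0.51 in RORasg/sg 2, -1.44 in RORasg/sg 3 and -1.23 in RORasg/sg 4. The median of the core subunits stood at 0.25, 0.17, -1.42 and -1.22 in the same hearts. In RORasg/sg 3 and 4 it came near that of the markers, but single core subunits lay far to both sides of it. In RORasg/sg 3, Ndufs1, Ndufs3 and Ndufs7 stood at 1.30, 0.41 and 1.09, and Ndufv1 and Ndufv2 at -1.70 and -5.02. The peripheral accessory subunits stood at -0.61, 0.79, 0.01 and 0.33 and the distal ones at -0.42, 0.88, 0.54 and 0.51, above the markers in RORasg/sg 2, 3 and 4. Within RORasg/sg 3 and 4 the members went both ways, with Ndufv1, Ndufv2, Ndufs6, Ndufb5 and Ndufb8 low and Ndufs1, Ndufs7, Ndufb4, Ndufb2, Ndufa8 and Ndufa7 high. The part of cardiomyocyte content in these values was not tested. Summed over the 44 members on the linear scale, the level was 1779 to 3527 times the 75th percentile in WT and 1617 to 4144 in RORasg/sg, and the ranges overlapped.

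**Figure D5:**
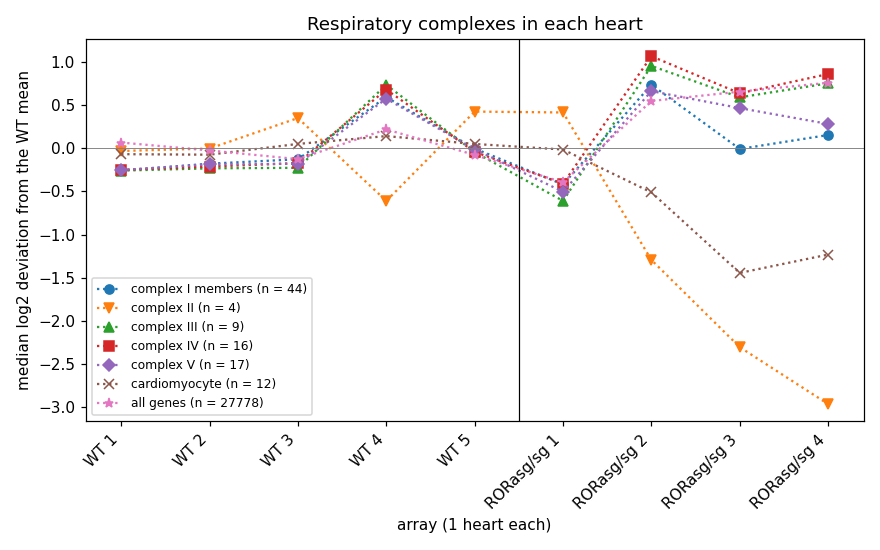
Median log2 deviation from the WT mean in each heart for the complex I members, complexes II to V, cardiomyocyte markers and all genes. Complexes I, III, IV and V are high in WT 4 and RORasg/sg 2 and low in RORasg/sg 1, while complex II and the cardiomyocyte markers are lowest in RORasg/sg 3 and 4.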

How the data were processed

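Single-colour Agilent arrays of 9 hearts (5 WT, 4 RORasg/sg) were analysed. Per the labels' protocols, 70 ng of total RNA was amplified (NuGEN Ovation Pico WTA) and 5 ug of cDNA was labelled with Cy3. Per the file headers, Feature Extraction 12.0.0.7 read the arrays, and the deposited processed intensity is linear, with background already subtracted and no scaling across arrays. A deposited value table held this same intensity (largest relative difference 0), with column medians of 55.2 to 139.

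Control spots and the 758 spots marked as outliers were dropped, and 0 spots were saturated. Spots of one probe were averaged, scaled to each array's 75th percentile and taken to log2. A probe was kept where 4 or more of the 9 arrays read it well above background (36408 of 41174), with 80.7% to 87.7% of probes well above background per array. The probe with the highest mean stood for each gene. Accessions were named through a GRCm38.p6 table (28223 probes, 19096 symbols). The test was the moderated linear model of limma 3.58.1 with an intensity trend (R 4.3.3), adjusted over 27778 genes by Benjamini-Hochberg at 0.05. The code was tested on simulated data. Precision is limited by how many arrays there were.

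The members and gene lists were chosen with earlier results of these data known. Values in every heart are given for core subunits, the 3 members with the smallest p in each other role group, Ndufab1 and Ndufa4. Others named are the extremes, members with several probes, and members called in a subset, which were named after their values were seen. A further member is not reported here on its own and is counted in all totals. Promoter windows came from the RefSeq table (GRCm38.p6), with 250 bases upstream of the start. Alternatives covered scaling, background, the filter, the probe, slide, array weights, brightness, the replicate block and each array left out. Brightness groups of probes and the comparison of single probes were added after seeing the data. Figures were drawn with matplotlib 3.10.9 in Python 3.11.15.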

Additional observations from a re-analysis of the deposited data

Results flagged for a closer look

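For the 20 members given heart by heart, the highest or lowest heart of each genotype was set against the gap to its nearest neighbour (Dixon's criterion, 42 sets tested, the median of all members included). It marked 11 values, and chance marks about 1 in 20. Of the 11, 10 were WT 4. It was high at 6.83 for Ndufs1, 6.96 for Ndufs3, 6.84 for Ndufs7, 6.63 for Ndufa9, 6.21 for Ndufs4, 7.80 for Ndufa13, 7.40 for Ndufa8, 5.87 for Ndufb4 and 7.07 for Ndufa4, and low at 1.29 for Ndufaf2. The remaining one was RORasg/sg 1 at 5.37 for Ndufa8, where the other 3 RORasg/sg hearts lay between 7.53 and 7.95. These genes share their arrays, so the marks are not independent of each other. Without WT 4, 28 members read higher and 16 lower, and 0 passed the adjusted threshold in limma.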

How the results depend on the processing

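Complex I members called by limma were 0 in every setting run except array weights (32, 18 higher and 14 lower), the 5 brighter arrays (7) and the one without RORasg/sg 1; leaving out 1 array at a time gave 0 to 22 members and 0 to 10404 genes. Genes called over all genes (1 with the reported setting) were 2 with quantile normalization, 3 with no scaling, 15141 with array weights, 1303 on the 5 brighter arrays, and 0 with normexp background, the filter on all arrays, the mean of probes, the probe with the lowest mean, slide as a fixed block, within slide 1, within slide 2 and on the 4 dimmer arrays. Hearts of the 2 genotypes share replicate numbers, and same-numbered hearts also lay on the same slide. With genotype means removed they correlated at 0.046, -0.0064, -0.33 and 0.39, which cannot decide whether the hearts were paired. They were taken as unpaired, and with the replicate block 9 genes and 0 members were called.

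The member median (0.03) was -0.54 with no scaling, 0.43 within slide 1 and -0.37 on the 4 dimmer arrays, and -0.13 to 0.24 with 1 array left out. The member median minus that of all genes (-0.37) was 0.38 within slide 1, -0.85 within slide 2, 0.075 on the 5 brighter arrays and -0.87 on the 4 dimmer arrays, and -0.47 to -0.17 with 1 array left out. The cause of these changes was not tested.

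Single members changed sign as follows. On the 5 brighter arrays Ndufs7 was -0.11, Ndufb4 -0.20, Ndufs3 -0.29, Ndufa13 -0.42, Ndufab1 -0.43, Ndufa12 -0.43, Ndufs4 -0.51, Ndufs1 -0.59, Ndufa4 -0.76, Ndufa8 -0.82, Ndufaf2 0.084, Ndufb8 0.13, Ndufv1 0.27, Ndufv2 0.58, Ndufa10 1.21 and Ndufs8 2.01. With brightness as a covariate Ndufab1 was -0.088, Ndufa12 -0.10, Ndufs4 -0.12, Ndufa4 -0.20, Ndufa13 -0.24, Ndufa8 -0.25, Ndufs3 -0.27 and Ndufs8 0.65. On the 4 dimmer arrays Ndufa13 was -0.15 and Ndufs3 -0.46. The scaling gave Ndufab1 -0.0079, Ndufa13 -0.022 and Ndufs3 -0.16 under quantile normalization, and Ndufa13 -0.20, Ndufab1 -0.25 and Ndufs3 -0.35 under no scaling. Averaging probes gave Ndufa12 -0.39 and Ndufab1 -0.78, and the probe with the lowest mean gave Ndufa12 -0.88, Ndufab1 -1.88 and Ndufaf7 0.22. Within slide 1 Ndufv2 was 0.13, Ndufb5 0.21, Ndufb8 0.22, Ndufv1 0.49 and Ndufs8 1.02, and within slide 2 Ndufs3 was -0.080. Leaving out 1 array gave Ndufs8 -1.16 to 0.055. Of the 20 members, Ndufa9 and Ndufaf5 kept their sign in all settings run. On the 5 brighter arrays they were -0.39 and -0.10, where the median over all genes was -0.35.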
